A study of Homo sapiens with 5 samples.

Results

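The genes described here were listed together as genes of secretory cells, although ELAVL3 is known from neurons. They are the trefoil factors TFF1, TFF2 and TFF3, the mucins MUC1 and MUC13, the granins CHGB and CHGA, and SPINK1, AGR2 and ELAVL3. They were chosen by symbol, as 10 of the 21199 human genes listed in any library, and read in the 826 cells with more than 2000 genes and under 25% mitochondrial UMIs. The tumor cells were SW480, a cell line established from a human colorectal cancer, which carried GFP and was injected into zebrafish embryos of 2 days post fertilization. Pooled tumors were dissected at 1 and 4 days post injection (dpi), and GFP-positive, DAPI-negative cells were sorted into 384-well plates, 1 plate to a library, and sequenced by SORT-seq, a CEL-Seq2 method that counts transcripts by unique molecular identifiers (UMIs). Libraries 6, 7 and 8 held 1 dpi cells (228, 142 and 163 cells), and libraries 10 and 11 held 4 dpi cells (132 and 161 cells). No treatment separated the groups, and no uninjected culture was analysed here. Each library was of 1 time point, so time cannot be told apart from plate, dissection and sort.

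Goblet cells of the gut secrete gel-forming mucins together with trefoil factors, small disulfide-bonded peptides that thicken mucus and help an injured epithelium to close. Enteroendocrine cells store hormones in dense-core granules, which chromogranin A (CHGA) and chromogranin B (CHGB) help to build. MUC1 and MUC13 are mucins that span the cell membrane, SPINK1 is a secreted trypsin inhibitor, AGR2 is a protein disulfide isomerase of the endoplasmic reticulum needed for mucin folding, and ELAVL3 is an RNA-binding protein known from neurons. Notch signaling, read here through its target genes HES1 and HES5, keeps intestinal progenitors from the secretory fate. The study compared tumor cells before and after most had been cleared from the host, and the comparisons here are of each gene between time points, of the genes that shared cells, and of both with HES1 and HES5.

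The cells of a library held 3789627 to 7503652 UMIs, with a median of 18823 to 36197 UMIs per cell. A floor of 3 UMIs in a library was 0.400 to 0.792 CPM (each gene's UMIs scaled to a total of 1000000 over the same cells). The epithelial markers EPCAM (1164 to 1525 CPM), KRT8 (1890 to 2422 CPM) and KRT18 (750 to 1344 CPM) were high in every library, and PTPRC, the defining leukocyte gene, had at most 3 UMIs in any. Other genes listed as leukocyte genes had more, with 2 to 83 UMIs a library for LST1 and 28 to 43 for LAPTM5, while MPO, CD3E and TYROBP had 0. Libraries 6, 7 and 10 were sequenced on one flow cell and 8 and 11 on the other. All libraries used the same 384 well barcodes by design. Whether plates of the same time held cells of separate tumor pools is not stated, so the p-values may cover technical spread only.

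In the human genome (hg38, GENCODE annotation) the 3 trefoil genes lie side by side on the minus strand of chromosome 21, within 54869 bases: TFF3 at chr21:42311667-42315409, TFF2 at chr21:42346357-42350997 and TFF1 at chr21:42362282-42366535. MUC1 lies at chr1:155185824-155192916 and MUC13 at chr3:124905442-124953819. CHGB lies at chr20:5911510-5925353, and ELAVL3 at chr19:11451326-11481046.

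TFF3, the trefoil peptide typical of intestinal goblet cells, was carried by most cells. Its level was 73.6, 82.8 and 110.0 CPM in libraries 6, 7 and 8 and 100.5 and 96.6 CPM in libraries 10 and 11, from 366 to 552 UMIs. The 4 dpi libraries sat inside the range of the 1 dpi libraries. At least 1 TFF3 UMI was seen in 61.4 to 74.6% of the cells of a 1 dpi library and in 76.5% and 67.7% of those of libraries 10 and 11. The spread between cells was wide: 160 of 571 positive cells had 5 or more UMIs, 1 cell of library 6 had 88, and the 10% of cells with the most held 44.9% of TFF3 UMIs.

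TFF2, a trefoil peptide of gastric and duodenal glands, measured 20.1, 24.2 and 33.5 CPM at 1 dpi and 11.6 and 15.8 CPM at 4 dpi. The groups did not overlap. It was seen in 33.3 to 38.7% of 1 dpi cells and in 22.0% and 26.7% of 4 dpi cells. TFF1, the estrogen-responsive trefoil peptide of surface mucous cells, measured 6.13, 12.3 and 6.90 CPM at 1 dpi and 1.01 and 0.528 CPM at 4 dpi. The later values rest on 4 and 2 UMIs, against 33 to 66 in the earlier libraries. Library 7 was the highest, and 1 of its cells gave 17 of its 66 TFF1 UMIs.

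The membrane mucins differed from each other. MUC1 measured 3.07, 4.65 and 5.65 CPM at 1 dpi and 7.32 and 9.24 CPM at 4 dpi, from 23 to 35 UMIs a library. MUC13 measured 24.1, 22.1 and 28.0 CPM at 1 dpi and 29.5 and 23.7 CPM at 4 dpi. The MUC1 groups did not overlap, while the MUC13 groups did. MUC13 was seen in 31.0 to 40.2% of cells and MUC1 in 8.33 to 13.7%.

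Of the granins, CHGB measured 5.60, 4.28 and 3.76 CPM at 1 dpi and 10.6 and 15.8 CPM at 4 dpi. Both later libraries lay above all 3 earlier ones. It was seen in 8.59 to 11.3% of 1 dpi cells and in 15.9% and 13.7% of 4 dpi cells, with at most 10 UMIs in a cell. ELAVL3 measured 5.86, 7.44 and 7.11 CPM at 1 dpi, and 0.505 and 0 CPM at 4 dpi. Its UMIs numbered 44, 40 and 34 at 1 dpi against 2 and 0 at 4 dpi. SPINK1 measured 2.00, 2.98 and 2.72 CPM at 1 dpi and 1.51 and 1.06 CPM at 4 dpi, from 4 to 16 UMIs a library.

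CHGA and AGR2 had too few UMIs to compare. CHGA gave 11, 0, 0, 18 and 1 UMIs in libraries 6, 7, 8, 10 and 11, and nearly all came from single wells: 1 cell of library 10 held 18 UMIs and 1 cell of library 6 held 9. The library 10 cell also held 9 UMIs of SCG3, a granin-binding protein of secretory granules, and 5 of VGF, a secretory granule peptide precursor. The library 6 cell held 7 UMIs of PAX6, an endocrine transcription factor, and 4 of VGF. AGR2 gave 1 UMI in all cells, in library 11. Taking 3 cells as the limit that a count of 0 allows, the share of cells with a CHGA UMI could be up to 2.11% in library 7 and 1.84% in library 8, and that with an AGR2 UMI up to 1.32 to 2.27% in libraries 6, 7, 8 and 10.

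**Figure D1:**
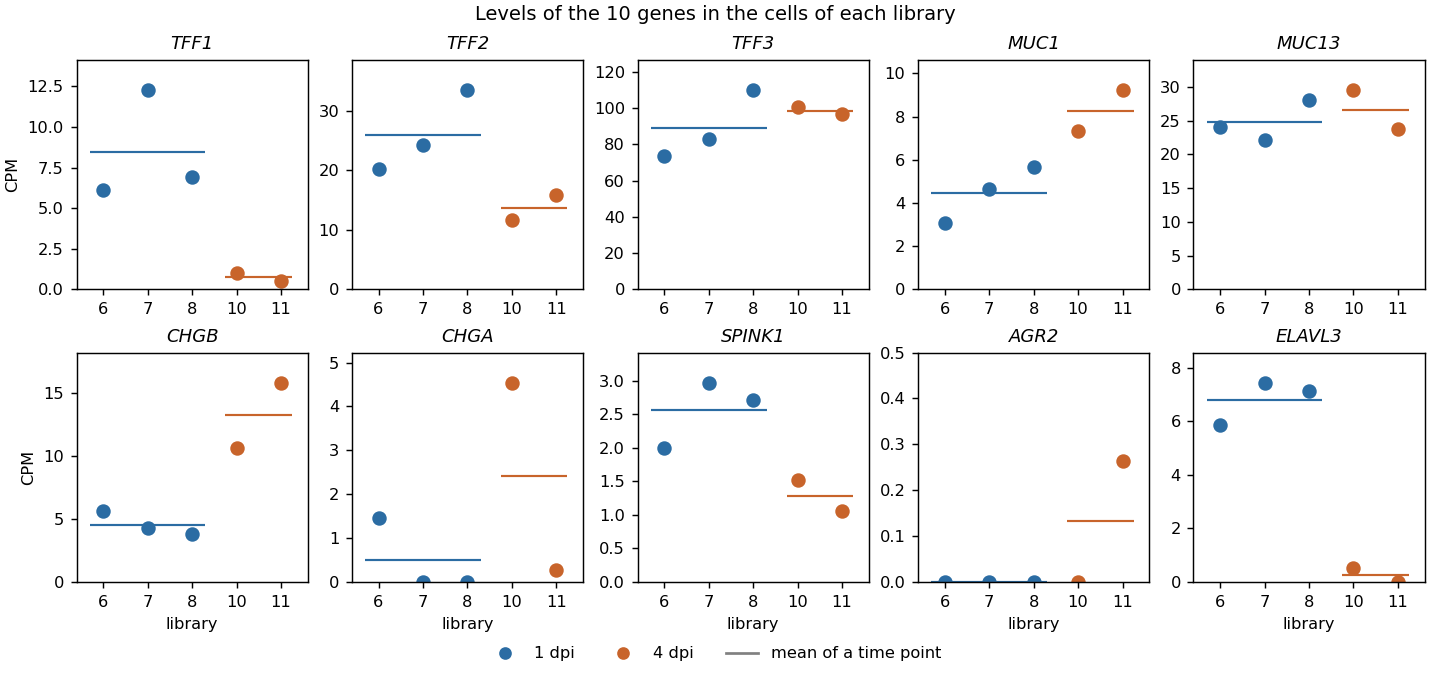
Level of each gene (CPM over the UMIs of the passing cells, vertical axes starting at 0 and differing between panels) in libraries 6, 7 and 8 (1 dpi) and 10 and 11 (4 dpi). Points are libraries and lines the mean of a time point, so that CHGB and MUC1 sit higher at 4 dpi, TFF1, TFF2 and ELAVL3 sit lower, and TFF3 and MUC13 overlap.

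Between the time points, CHGB and MUC1 rose and TFF1, TFF2 and ELAVL3 fell. UMIs were summed per library and compared by edgeR's quasi-likelihood test with Benjamini-Hochberg adjustment over 12646 genes, of which 13.4% were called higher and 14.2% lower at 4 dpi and 54.6% had libraries that did not overlap. Of the 8 members tested, 2 were called higher and 3 lower, and 6 had libraries that did not overlap. CHGB rose by 1.48 on the log2 scale (SE 0.28, adjusted p = 0.00130), higher in 2 of 2 libraries than in any of 3. MUC1 rose by 0.90 (SE 0.32, adjusted p = 0.0467). The MUC1 call rested on every library but 8: it was lost without library 6 (0.66, adjusted p = 0.165), 7 (0.97, 0.0681), 10 (1.06, 0.0695) or 11 (0.73, 0.253), and in 10 of 17 alternatives in all.

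TFF1 and ELAVL3 had the largest changes of the 8 members tested. TFF1 fell by 3.42 on the log2 scale (SE 0.54, edgeR adjusted p = 2.9e-04). TFF2 fell by 0.93 (SE 0.23, adjusted p = 0.00771), and without library 10 by 0.72 (adjusted p = 0.0617). ELAVL3 had a fitted log2 change of -4.61 (SE 0.64, adjusted p = 9.7e-05). Taken from its counts, 2 UMIs at 4 dpi against 118 at 1 dpi, ELAVL3 was 25.9-fold lower, with an exact 95% interval of 7.01 to 216 that covers counting error only. The ELAVL3 call was past the threshold in 17 of 17 alternatives.

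TFF3, MUC13 and SPINK1 did not pass the test. The log2 differences were 0.13 for TFF3 (SE 0.14, edgeR adjusted p = 0.511), 0.09 for MUC13 (SE 0.17, adjusted p = 0.732) and -0.98 for SPINK1 (SE 0.52, adjusted p = 0.173). With a mitochondrial maximum of 15% per cell the TFF3 difference turned to -0.43 (adjusted p = 0.0550). Within each flow cell the libraries of the 5 called genes were ordered as in the whole, and with the flow cell as a term MUC1 alone of them lost its call (0.82, adjusted p = 0.0611). When libraries were scaled by ERCC spike-in RNA instead, ELAVL3 alone was called (adjusted p = 0.0490), with log2 changes of 1.16 for CHGB, 0.67 for MUC1, -1.15 for TFF2 and -3.74 for TFF1. The plot of change with time shows the 3 trefoil genes, neighbours on the chromosome, spread from -3.42 to 0.13.

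**Figure D2:**
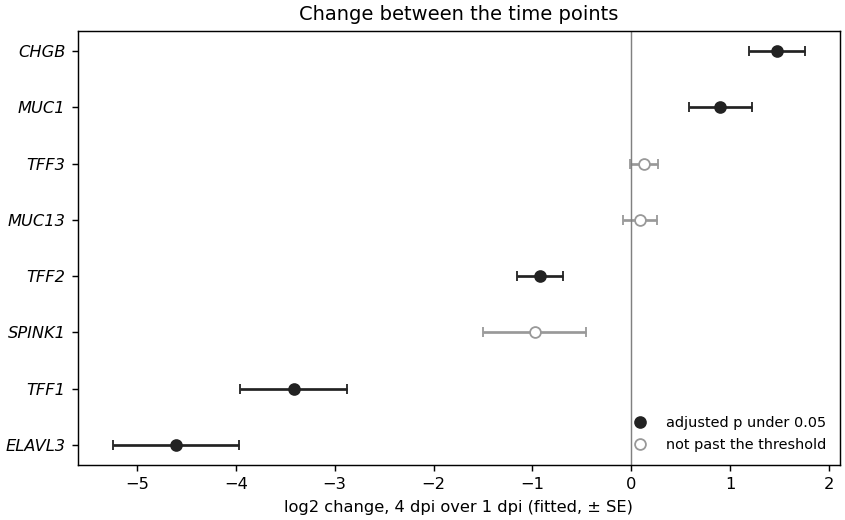
Fitted log2 change of the 8 tested genes, 4 dpi over 1 dpi (horizontal axis), with bars of 1 SE. Filled points are past an adjusted p of 0.05: CHGB (1.48) and MUC1 (0.90) lie right of 0, and TFF2 (-0.93), TFF1 (-3.42) and ELAVL3 (-4.61) lie left of it.

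Shares of cells with a UMI depend on depth, so cells were also thinned to 5000 UMIs, which left 815 of the 826. Thinned shares were 3.80% ± 1.17 (SD, n = 3 libraries) at 1 dpi and 0.314% ± 0.445 (SD, n = 2) at 4 dpi for TFF1, and 1.39% ± 0.759 and 3.88% ± 1.04 for CHGB. ELAVL3 was seen in 3.56% ± 1.43 of thinned cells at 1 dpi and in none at 4 dpi. For each of these, 1 dpi and 4 dpi libraries did not overlap. An exact two-sided permutation test of 3 against 2 gave each p = 0.1, the smallest it allows. TFF3 had thinned shares of 29.1% ± 7.02 and 34.0% ± 1.90, and TFF2 12.4% ± 1.89 and 7.65% ± 4.30, with libraries that overlapped (exact two-sided permutation p = 0.5 and 0.2). In cells thinned to 10000 UMIs, libraries of neither gene overlapped. The shares there were 44.5% and 57.8% for TFF3 and 19.3% and 10.8% for TFF2 (exact two-sided permutation p = 0.1 each). MUC13 had shares of 8.13% and 12.7% at 5000 UMIs and 16.3% and 21.6% at 10000 UMIs, with no overlap at either depth (exact two-sided permutation p = 0.2 and 0.1). At 5000 UMIs libraries 8 and 11 nearly met, at 10.00% and 10.06%. With all UMIs counted the MUC13 libraries overlapped (32.1% and 35.6%, exact two-sided permutation p = 0.4). In 487 wells with under 200 genes, taken as near-empty, TFF3 gave 3 UMIs and ELAVL3 gave 3, with a median of 101 UMIs a well.

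Related genes moved in part with these members. In the enteroendocrine list, 6 of 11 tested genes rose, none fell, and the median log2 change was 0.69, beside 0.00 over all genes. SNAP25, a vesicle fusion protein, rose by 1.70 (SE 0.41, edgeR adjusted p = 0.00667) and CPE, a prohormone-processing carboxypeptidase, by 1.25 (SE 0.29, adjusted p = 0.00439). PCSK1N, SCG3, SYP and VGF rose by 0.69 to 1.09. The endocrine master regulator NEUROG3 had 0 UMIs in all cells, as did the hormone gene MLN.

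In the goblet and mucus list, 2 of 13 tested genes rose and 1 fell, with a median of 0.22. GALNT12, which starts O-glycans, rose by 1.21 and KLF4, a goblet cell transcription factor, by 0.46, while SERPINA1, a protease inhibitor, fell by 1.24 on the log2 scale. Defining goblet genes were missing: SPDEF, ATOH1, CLCA1, ZG16, ITLN1, RETNLB, SPINK4, ST6GALNAC1 and GALNT5 had 0 UMIs in the cells. MUC2, the main gel-forming mucin of the colon, gave 28, 25, 20, 5 and 0 UMIs in libraries 6, 7, 8, 10 and 11. Its level was 3.73, 4.65 and 4.18 CPM at 1 dpi and lower, 1.26 and 0 CPM, at 4 dpi, without overlap. It was not among the 13 genes tested, which had to be listed in all 5 libraries. The counts and median of the list leave it out. The labels "goblet" and "enteroendocrine" therefore name the genes here and not the cells.

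Of the other mucins 2 of 4 tested rose: MUC5AC by 1.90 (SE 0.35, edgeR adjusted p = 9.3e-04) and MUC5B by 1.61 (SE 0.41, adjusted p = 0.00879), both gel-forming. In the Paneth list PRSS2, a trypsinogen, rose by 4.31 (SE 0.29, adjusted p = 8.1e-08), from a mean of 9.3 to 173.8 normalized CPM, and PRSS1 had a log2 difference of 1.33 (SE 0.53, adjusted p = 0.0717). SPINK1, which blocks trypsins, did not pass. The absorptive gene GUCA2A rose by 1.50 (1 of 4 tested).

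Among neuronal genes, 3 of 9 fell, RBFOX2, STMN3 and TUBB3, by 0.27 to 0.55 on the log2 scale, the median of the list being -0.23. Of 4 tested genes listed as trefoil or SPINK neighbours, UBASH3A, which lies near the trefoil genes, fell by 2.67 (SE 0.77, edgeR adjusted p = 0.0167). It had 2 and 1 UMIs in libraries 10 and 11, below the floor. TMPRSS3 (0.26), RSPH1 (0.45) and SPINK5 (0.21) were not called (edgeR adjusted p = 0.0911, 0.278 and 0.786). In the epithelial list 2 of 11 rose, CLDN3 by 0.73 and EPCAM by 0.25, and 4 fell, CDH1 and HNF4A the most (log2 changes of -0.73 and -0.53).

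Notch genes were lower at 4 dpi, with 8 of 16 called lower and 1 higher and a median of -0.69. HES5 fell by 4.99 on the log2 scale (SE 0.29, edgeR adjusted p = 3.5e-08), HES1 by 3.20 (SE 0.20, adjusted p = 5.4e-08), and NOTCH1 rose by 0.54. Genes listed as markers of other cell types also moved. The host was zebrafish, the sorted cells were GFP-positive and reads were mapped to human, so these lists name genes and not cells. Of 12 leukocyte genes 4 were tested and FCER1G was lower (log2 change of -1.64), from 3 and 4 UMIs at 4 dpi. The summed level of the list was 25.9 to 28.7 CPM at 1 dpi and 17.2 to 21.4 CPM at 4 dpi, and MPO, CD3E and TYROBP were at 0. Of 12 stromal and red cell genes, COL1A1 was higher (2.14), HBA1 lower (-1.16) and LUM not called (0.22), with summed levels of 30.4 to 38.5 and 38.0 to 50.2 CPM and COL1A2 and CDH5 at 0. Their part in the changes of the members was not tested.

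Cells often carried several of the genes. No member was seen in 10.6 to 21.1% of the cells of a library, and the median cell had 2 members, except in library 11 where it had 1. All 3 trefoil genes were seen together in 19, 19 and 9 cells of libraries 6, 7 and 8, and in 0 and 1 cells of libraries 10 and 11.

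TFF2 and TFF3 shared cells in every library. In cells thinned to 5000 UMIs, TFF3 was seen in 46 of 87 cells with a TFF2 UMI (52.9%) and in 27.5% of the 728 cells without one. The shares with and without TFF2 were 54.2% and 17.8% in library 6, 47.1% and 27.6% in library 7, 52.2% and 32.8% in library 8, 3 of 6 cells and 34.7% in library 10 and 58.8% and 29.6% in library 11. All 5 libraries went the same way, as they did with all UMIs counted (87.5% against 60.6% over all cells).

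**Figure D3:**
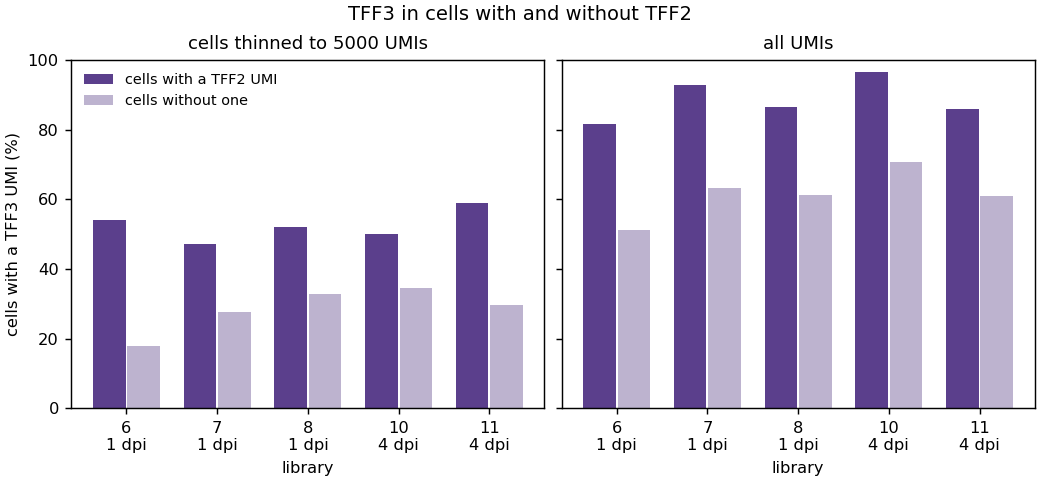
Share of cells with a TFF3 UMI (percent, vertical axis from 0 to 100) among cells with and without a TFF2 UMI in each library, after thinning to 5000 UMIs (left) and with all UMIs (right). In each of the 5 libraries the share was higher in the cells with TFF2, for example 58.8% against 29.6% in library 11 after thinning.

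To compare levels, the UMIs of cells with and without a given gene were summed in each library and tested by edgeR with the library as a block, wherever each library held at least 10 cells on both sides. The gene that splits the cells gets no test. Cells with a UMI were deeper than cells without (a median of 35651 against 27424 UMIs for TFF2 at 1 dpi), and every value below is relative to the total of its side. At 1 dpi, 9 of 51 tests of another member were called higher and 1 lower, and at 4 dpi 2 of 20 were called higher and 4 lower. Each pair of genes could enter from both sides, so that these tests are not independent.

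Cells with TFF2 held more TFF3 at 1 dpi. TFF3 measured 124.9, 119.7 and 164.6 CPM in TFF2 cells of libraries 6, 7 and 8 and 41.3, 51.1 and 68.9 CPM in cells without TFF2. No library of one side reached the other side, and the log2 ratio was 1.36 (SE 0.13, edgeR adjusted p = 7.2e-06), past the threshold in 10 of 10 alternatives. In this split 3 of 7 other members were called, beside 0.338% of all genes: TFF1 was also higher (1.80, SE 0.32, adjusted p = 0.0121, but 1.50, 0.0825 without library 7) and so was MUC13 (0.94, SE 0.18, adjusted p = 0.0249). The MUC13 call was lost in 8 of 10 alternatives, among them without library 6 (0.92, 0.0561) or 7 (0.84, 0.0628). CHGB had a log2 ratio in the same cells that did not pass, with 2.76, 4.03 and 2.92 CPM against 7.38, 4.49 and 4.40 CPM.

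The other trefoil splits went the same way at 1 dpi. In TFF1 cells, TFF2 measured 50.9, 38.6 and 86.2 CPM against 14.8, 18.3 and 23.8 CPM, a log2 ratio of 1.63 (SE 0.20, edgeR adjusted p = 8.5e-04). TFF3 was higher there by 0.97 (SE 0.16, adjusted p = 0.00521), though without library 8 by 0.71 (0.0582). These were 2 of 6 members, beside 0.787% of all genes. In TFF3 cells, 1 of 6 members was called beside 0.0259% of all genes, namely TFF2, with 24.1, 27.2 and 40.0 CPM against 9.35, 8.92 and 9.65 CPM (log2 ratio 1.61, SE 0.24, adjusted p = 0.0405, and 1.82, 0.147 without library 6).

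MUC13 cells at 1 dpi were higher in TFF2 (0.84, SE 0.17, edgeR adjusted p = 0.00655, and 0.72, 0.215 without library 8) and TFF3 (0.61, SE 0.10, adjusted p = 7.98e-04), 2 of 7 members beside 2.25% of all genes. The TFF3 call held in 7 of 9 alternatives. After thinning to 5000 UMIs, TFF3 was in 32.9% of 79 MUC13 cells of all libraries and 29.9% of the others, higher in 2 of 5 libraries. TFF2 was in 16.5% and 10.1%, higher in 4 of 5. MUC13 cells of 1 dpi were also higher in HES1 (0.66, adjusted p = 1.6e-06) and lower in HES5 (-0.78, adjusted p = 0.00257). HES5 measured 73.6, 61.2 and 78.4 CPM in MUC13 cells of libraries 6, 7 and 8 against 164.4, 123.2 and 72.4 CPM. Library 8 thus went the other way, and 1 cell held 240 of the 956 HES5 UMIs of library 6. Genes with the smallest p in the MUC13 split, chosen after their values were seen, included the epithelial genes CLDN4 (1.16), ELF3 (0.84) and CDH1 (1.02). MUC1 and SPINK1 cells of 1 dpi showed no call among 6 and 7 members, beside 0.0356% and 0.0707% of all genes. HES1 was higher in the MUC1 cells (1.08, adjusted p = 0.00290) and lower in the SPINK1 cells (-1.33, adjusted p = 2.7e-04).

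At 4 dpi the TFF2 split gave no call among 4 members (0.0554% of all genes), and neither did the MUC13 split (0.192%). In TFF3 cells, TFF2 measured 13.4 and 19.1 CPM in libraries 10 and 11 against 1.69 and 6.94 CPM, the first of these from 1 UMI. The log2 ratio was 1.95 (SE 0.59, edgeR adjusted p = 0.0465), 1 of 4 members beside 4.35% of all genes. It was no longer past the threshold without library 10 (1.61, 0.0688) or 11 (3.01, 0.145). HES1 was lower in TFF3 cells of 4 dpi (-0.87, SE 0.25, adjusted p = 0.0354). TFF3 cells had a median of 25447 UMIs and 13.8% mitochondrial UMIs, and cells without TFF3 14221 UMIs and 9.14%, whose part in the result was not tested.

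Cells with CHGB held less of the trefoil genes TFF3 and TFF2 at 4 dpi. TFF3 measured 45.5 and 35.4 CPM in CHGB cells of libraries 10 and 11, and 113.2 and 110.6 CPM in cells without CHGB. Both CHGB sides lay below both others, a log2 ratio of -1.73 (SE 0.22, edgeR adjusted p = 3.4e-12), past the threshold in 8 of 8 alternatives. Here 3 of 4 members were called, all lower, beside 31.5% of all genes, so a call was common in this split. TFF2 measured 5.36 and 7.08 CPM against 13.1 and 17.8 CPM (-1.57, SE 0.55, adjusted p = 0.0180), a call lost without library 10 (-1.57, 0.103) or 11 (-1.57, 0.152). The fourth member tested, MUC13, did not pass. After thinning to 5000 UMIs, 5 of 19 CHGB cells of all 5 libraries had TFF3 (26.3%, against 30.3% of the others). TFF2 was in 3 of the 19 (15.8%, against 10.6%), too few to compare at equal depth. Counting all UMIs, TFF3 was seen in 75.0% of CHGB cells and 68.4% of the others, so the lower TFF3 was one of level.

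MUC1 and CHGB were almost never seen in the same cell at 4 dpi. CHGB was seen in 0 of 18 MUC1 cells of library 10 and 1 of 22 of library 11, against 18.4% of 114 and 15.1% of 139 cells without MUC1. In CHGB cells MUC1 had 1 UMI against 63 in the others, 14.5-fold lower (exact 95% interval 2.51 to 583), and in MUC1 cells CHGB had 1 UMI against 101, 22.3-fold lower (3.91 to 890), both for counting error only. The edgeR adjusted p-values were 4.0e-04 and 2.8e-04. Each gene passed the filter on low counts only through the side where it was high, so these p-values add no support to the counts. These are views of the same cells from either gene, and the calls were lost without library 10 (adjusted p = 0.0979 and 0.121) and, for CHGB in MUC1 cells, without library 11 (0.144). At 1 dpi the genes did share cells, 1 of 19, 2 of 15 and 4 of 22 MUC1 cells having CHGB in libraries 6, 7 and 8.

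MUC1 cells at 4 dpi held more TFF3, 179.5 and 143.9 CPM against 84.9 and 84.9 CPM, a log2 ratio of 1.11 (SE 0.19, edgeR adjusted p = 2.9e-07). With CHGB this made 2 of 4 members called, beside 14.4% of all genes. Without library 10 or 11 the TFF3 call was lost (0.91, 0.396, and 1.32, 0.188). HES1 was lower in MUC1 cells of 4 dpi (-1.20, SE 0.24, adjusted p = 3.4e-05) and higher in CHGB cells (1.00, SE 0.18, adjusted p = 1.1e-06).

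**Figure D4:**
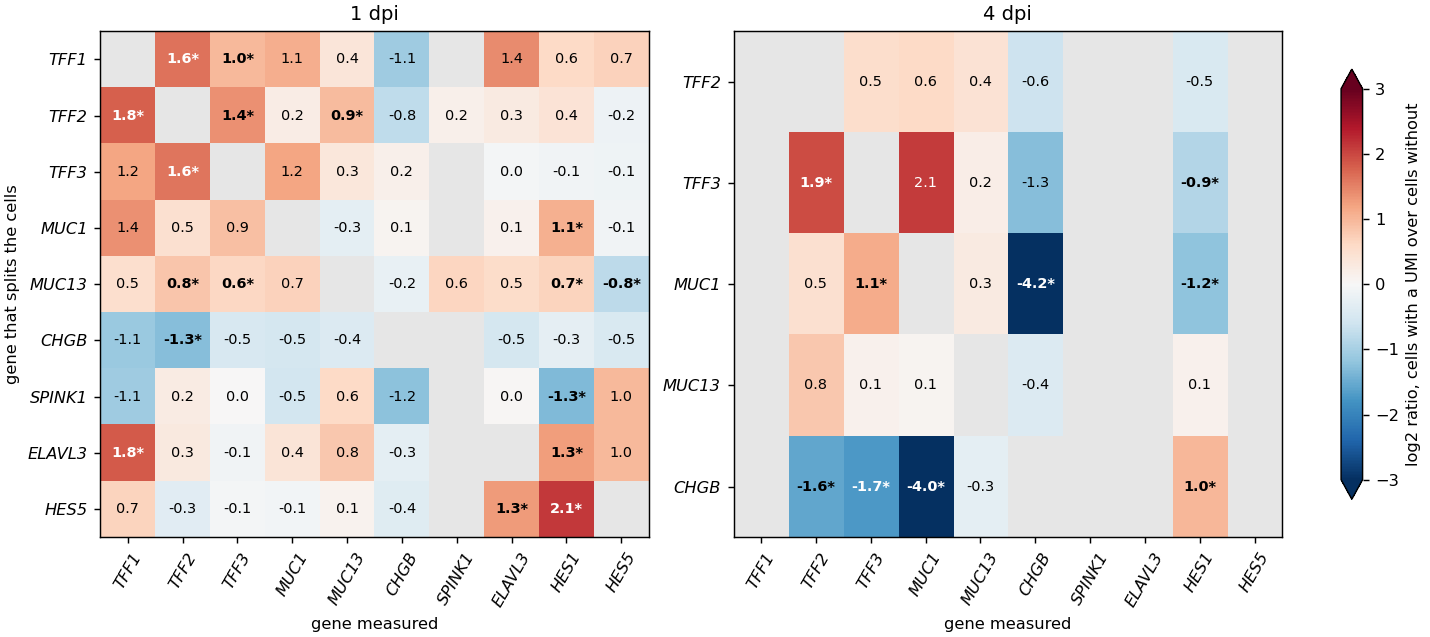
Log2 ratio of each gene (columns) in cells with over cells without a UMI of the gene that splits the cells (rows), at 1 dpi (3 libraries) and 4 dpi (2 libraries), on a colour scale that saturates at 3 either way. Asterisks and bold type mark an adjusted p under 0.05 and grey marks pairs not tested or the splitting gene itself: 5 of 6 trefoil pairs were called higher at 1 dpi, and the CHGB row was negative for TFF2, TFF3 and MUC1 at 4 dpi.

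Other genes separated the CHGB cells of 4 dpi too. In the enteroendocrine list 6 of 9 tested genes were higher and 2 lower, with a median of 1.22. VGF was higher by 2.45 (SE 0.19), SNAP25 by 2.69 (SE 0.56), SCG3 by 1.75 (SE 0.41), CPE by 1.57 (SE 0.47), SYP by 1.22 (SE 0.29) and PAX6 by 0.84 (SE 0.34). PCSK1N, a convertase inhibitor, and PAM, which amidates peptides, were lower (-0.73 and -1.48).

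Mucins and epithelial genes lay on the other side. MUC5AC (-4.62, SE 0.89) and MUC5B (-1.85, SE 0.74) were lower in CHGB cells, and of 11 epithelial genes 4 were lower, among them EPCAM (-0.76, SE 0.16) and KRT8 (-0.73, SE 0.17), and none higher. In the goblet list 3 of 11 were higher and 2 lower, FOXA3, a secretory lineage factor, being the highest (2.58, SE 0.52). The genes with the smallest p, named after their values were seen, were the metallothioneins MT1E (3.31) and MT1X (2.62), the clock genes BHLHE41 (2.90) and NR1D1 (2.32) and DHRS2 (3.16) among the higher, and the mitotic topoisomerase TOP2A (-2.76), PHGR1 (-2.36) and HES6 (-2.73) among the lower. MUC1 cells of the same libraries went the other way for several of these, with DHRS2 (-7.30), BHLHE41 (-5.21) and VGF (-4.00) lower and TOP2A (1.68) and MUC5AC (1.35) higher.

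**Figure D5:**
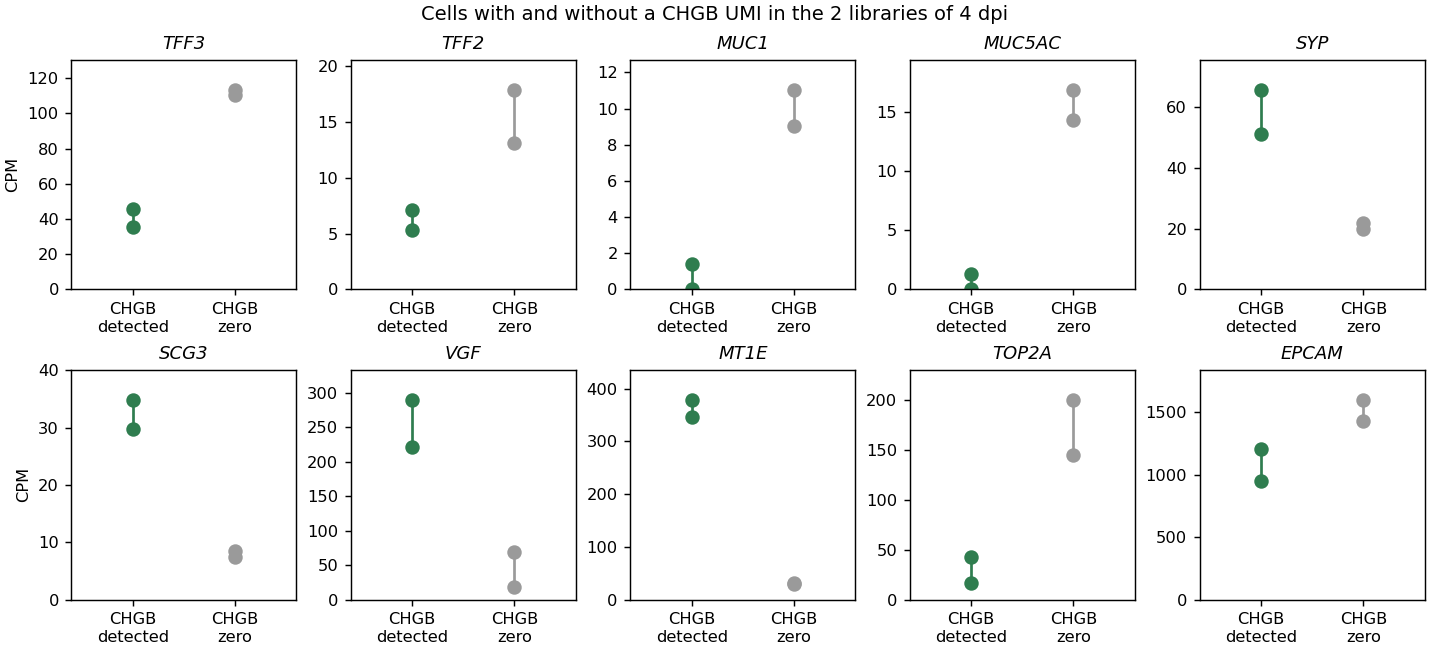
Level (CPM, vertical axes from 0 and differing between panels) of 10 genes in the summed cells with and without a CHGB UMI, 1 point for each of the 2 libraries of 4 dpi, joined within a side. TFF3, TFF2, MUC1, MUC5AC, TOP2A and EPCAM were lower and SYP, SCG3, VGF and MT1E higher in the CHGB cells, and the libraries of the sides did not overlap in any panel.

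CHGB cells differed in quality measures. At 4 dpi the 43 CHGB cells had a median of 32439 UMIs and 6.07% mitochondrial UMIs, and the 250 others 21610 UMIs and 13.2%. Among cells of at least 20000 UMIs the TFF3 ratio was -1.84, and among cells under 10% mitochondrial UMIs it was -1.03 (edgeR adjusted p = 0.0489), a smaller ratio. MUC1 cells had the opposite mitochondrial value (16.3% against 11.6%), whose part in their result was not tested.

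At 1 dpi CHGB cells were lower in TFF2, with 6.74, 16.1 and 16.6 CPM against 22.3, 25.5 and 35.9 CPM (-1.27, SE 0.30, edgeR adjusted p = 0.00931), 1 of 6 members beside 4.68% of all genes. Without library 6 (-1.01, 0.124) or 8 (-1.28, 0.131) the call was lost. Of 10 enteroendocrine genes VGF (1.56, SE 0.24) and SYP (1.31, SE 0.29) were higher. Whether the splits differed between the time points was tested as an interaction, and 0 of 30 member tests passed with edgeR (7 at an unadjusted p under 0.05, no other tool being run). The nearest was TFF3 in the CHGB split, -1.24 (adjusted p = 0.0540), which passed without library 6 (-1.51, 0.00886).

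ELAVL3 went with TFF1 and with HES1 at 1 dpi. In ELAVL3 cells TFF1 measured 16.4, 35.2 and 15.2 CPM against 4.48, 7.96 and 5.42 CPM, a log2 ratio of 1.85 (SE 0.34, edgeR adjusted p = 0.00462), past the threshold in 6 of 6 alternatives. In library 7, 17 of the 30 TFF1 UMIs of ELAVL3 cells came from 1 cell. TFF1 was 1 of 6 members called, beside 10.9% of all genes, so a call was common in this split. HES1 was higher in the ELAVL3 cells (1.26, SE 0.22, adjusted p = 0.00376), as were the Notch targets HEYL (1.08) and NRARP (0.95). Counting all UMIs, ELAVL3 was seen in 31.2%, 25.8% and 33.3% of the TFF1 cells of libraries 6, 7 and 8 and in 7.65%, 8.11% and 11.3% of the other cells. After thinning to 5000 UMIs, 1 of 20 TFF1 cells of all libraries had ELAVL3 (5%, against 2.26% of the others), too few to compare at equal depth.

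When cells were instead split by HES5 at 1 dpi, ELAVL3 was the one member called of 7, beside 33.9% of all genes. Members were thus called less often than all genes, and a call was common in this split. ELAVL3 measured 10.4, 13.5 and 9.72 CPM in HES5 cells and 3.60, 3.86 and 5.46 CPM in the others (1.27, SE 0.33, edgeR adjusted p = 0.00441). HES5 cells were deeper, with a median of 41457 against 27976 UMIs, and had 9.81% against 12.0% mitochondrial UMIs. Among cells under 10% mitochondrial UMIs the ratio was 1.43 (adjusted p = 0.0725).

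LST1, a leukocyte-list gene with 1.67 to 11.1 CPM at 1 dpi, was higher in cells with TFF1 (3.14), TFF2 (2.19), MUC13 (1.89) and ELAVL3 (1.91). Its part in the sharing of cells was not tested.

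Likeness across cells was read as a description, as the mean within-library Pearson r of log-scaled UMIs over 11963 genes, with cells that share a library, depth and sort. The gene most like TFF2 was TFF3, and the reverse, with a mean r of 0.38 (0.23 to 0.45 over 5 libraries). In cells thinned to 5000 UMIs their r was 0.19, and TFF3 was then more like PTGDS and RPS15 (0.21 each). TFF3 was next most like RPS15 (0.34) and PTGDS (0.33), and CHGB most like CCT6P3 (0.33) and PITRM1 (0.31). ELAVL3, over 4 libraries, was most like EGR2 (0.33, from 0.24 to 0.43), HES1 (0.32, from 0.17 to 0.46) and EGR4 (0.32, from 0.04 to 0.51). Of these libraries, library 10 had ELAVL3 in 1 cell only. No other member reached 0.3 with any gene, and no pair did so in cells thinned to 5000 UMIs.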

How the data were processed

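The authors sorted single cells into plates, sequenced them on a NextSeq 500 and mapped read 2 to the human transcriptome with BWA (hg38 in the submitters' processing notes, with no version of either given). The deposited values are UMI counts per gene and well. Per the study's code, wells needed more than 2000 genes and under 25% mitochondrial UMIs, and genes had to be listed in all 5 libraries and seen in at least 10 wells. No doublet caller was run on sorted wells.

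UMIs were summed per library, since cells are not replicates, and tested with edgeR 4.0.16 in R 4.3.3 (TMM, filterByExpr, quasi-likelihood F test, two-sided, adjusted p under 0.05). Each kind of fit was tested on simulated data. DESeq2 1.42.0 was an alternative. A split at 4 dpi used 2 libraries (1 residual degree of freedom per gene, so that its p-values lean on the spread shared over genes), and a fit without one of them pooled the spread of all libraries. All members were named, and of each list the called genes with the 2 largest rises and falls. The members and lists were chosen with earlier results of these data known.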

Additional observations from a re-analysis of the deposited data

Results flagged for a closer look

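The differences of 2 splits between the time points passed the edgeR interaction test with Benjamini-Hochberg adjustment. HES1 in MUC1 cells against cells without MUC1 differed by -2.26 on the log2 scale (4 dpi minus 1 dpi, adjusted p = 1.6e-04), from 1.08 at 1 dpi to -1.20 at 4 dpi. HES1 in CHGB cells against cells without CHGB differed by 1.28 (adjusted p = 0.00550), from -0.27 at 1 dpi, which did not pass, to 1.00 at 4 dpi.

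Members were also seen, above the floor of 3 UMIs, in the 1094 wells that failed the cell filter. TFF3 gave 174 UMIs there, 99 of them in the 60 wells with too high a mitochondrial share. MUC13 gave 31 UMIs, MUC1 20, TFF2 18, SPINK1 11 and ELAVL3 10. CHGB gave 3, TFF1 and CHGA 2 each, and AGR2 1. Groups of 3 and 2 libraries were too small to look for a library far from the others.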

How the results depend on the processing

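Of 135 values of members over time, 116 kept their direction and side of the threshold, 15 lost the call and 4 turned in direction. With the ERCC scale 1 member of 8 was called (5 as reported) and 3 genes in all (3485 as reported). In cells thinned to 5000 UMIs 0 of 3 members and 1140 genes were called. Leaving out a library gave 3 to 5 members and 2352 to 3525 genes. TFF3 turned to -0.43 with a mitochondrial maximum of 15% and to -0.0019 in thinned cells. MUC13 turned to -0.0246 on the ERCC scale and -0.0877 without library 10, and ranged up to 0.239 leaving out other libraries. The cause was not tested.

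Of 124 values of pairs, 88 kept their call and 36 lost it. At 1 dpi, calls higher numbered 3 with at least 2 UMIs (6 as reported, over the same pairs) and 1 under 10% mitochondrial UMIs (5 as reported). Calls lower numbered 2 without a filter on low counts and 0 to 2 leaving out a library. At 4 dpi, calls higher numbered 2 with at least 2 UMIs (1 as reported), 1 with at least 20000 UMIs and 0 leaving out either library. Calls lower then numbered 1 to 2. The HES5 split called 0 members under 10% mitochondrial UMIs and 1 to 2 leaving out a library, and the interaction 0 to 1. Likeness reached 0.3 in 15 pairs, and in 0 after thinning. The settings of at least 20000 UMIs, under 10% mitochondrial UMIs and without a top cell were chosen after seeing the data.

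No paired analysis was possible because the time points share no replicate numbers. With 3 and 2 libraries and few UMIs for most members, absence of a call is not absence of a difference.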
